A study of Mus musculus with 51 samples.

Results

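Gastrocnemius, the large mixed calf muscle, was profiled by RNA sequencing in 8 of the 51 libraries of this mouse series. The 8 libraries are those labelled as this muscle, and each came from a different animal. They formed 4 libraries from mice that had undergone Roux-en-Y gastric bypass (RYGB) and 4 from sham-operated mice. All 8 animals were male C57Bl6 mice with diet-induced obesity, with no engineered allele named in the labels, and were sampled 9 weeks after surgery, in the morning after a night without food. Both groups passed through an elemental liquid diet after surgery and then came back step by step to high-fat food. Sham mice were given limited food to hold them at the body weight of the bypass mice. The comparison therefore asks how muscle differed between bypassed mice and mice held at similar weight by food restriction, and the operation and the food restriction cannot be told apart in it. The labels used here state no age. One label field of the RYGB muscle libraries names a sham source, while their titles and surgery field name RYGB, and the titles were followed.

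Skeletal muscle takes up most of the glucose that insulin clears from blood, by moving the transporter GLUT4 to the cell surface. In fasting it turns to fatty acid oxidation under the control of PPAR factors and of pyruvate dehydrogenase kinase, and glucocorticoids and FOXO factors raise the ubiquitin ligases that break down contractile protein. In the bypass, food leaves a small gastric pouch directly into the jejunum, an operation known for its effect on glucose control.

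The libraries had the make-up of muscle. The 9 muscle markers together took 95170 to 183800 CPM (read counts scaled to the same total in each library) in RYGB libraries and 93830 to 154800 CPM in sham libraries. Counted reads per library could be read from the rounding steps of the values for 4 libraries only and came to 13340000 to 24280000, so that a step of 0.1 CPM was 1.33 to 2.43 reads in them. Across genes the log2 values of RYGB libraries correlated with each other at 0.917 to 0.967 and those of sham libraries at 0.964 to 0.989. The spread was wider in the RYGB group: the median gene had a standard deviation of 0.367 on the log2(CPM + 1) scale among RYGB libraries and 0.202 among sham libraries, and 78.5% of genes varied more among RYGB libraries. The library RYGB 2 stood apart along the first principal component, which held 33.7% of the variance. It was more than 2-fold above every other library in 163 genes and more than 2-fold below every other library in 94. Without it the median standard deviation among RYGB libraries was 0.304. A second library, sham 2, was more than 2-fold below every other library in 48 genes, among them the slow-fibre genes Myh7, Myl2, Myl3, Tnnc1, Tnni1 and Tnnt1. Results that rest on these libraries are given with and without RYGB 2.

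No gene of 11594 passed an adjusted p of 0.05 (limma on log2(CPM + 1), Benjamini-Hochberg adjustment, 4 against 4 animals), which is 0.00% in either direction. At an unadjusted p below 0.05 there were 466 genes with higher values in RYGB muscle (4.02%) and 346 with lower values (2.98%). The 4 RYGB values lay wholly above the 4 sham values in 221 genes (1.91%) and wholly below them in 227 (1.96%), together 3.86%. The median gene had a log2 fold change of -0.003, and 5850 genes lay below 0. The p-values rest on the spread among these 8 animals alone. With RYGB 2 left out, 24 genes passed, 14 higher (0.121%) and 10 lower (0.0863%). Leaving out sham 1 gave 4 genes, sham 3 gave 1, RYGB 4 gave 1 and each of the other libraries 0, and a fit that gave each library a weight from its own scatter, and RYGB 2 a weight of 0.26, called 13. In what follows, counts are read against these shares, and genes that passed in no fit are described by their values.

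The smallest adjusted p, 0.0566, was shared by 6 genes, Tmem176b, Myo1a, Scd2, Tbc1d1, Lep and Igkc. Tmem176b encodes a membrane protein best known from dendritic cells and macrophages. It stood at 29.6, 34.9, 26.3 and 21.7 CPM in RYGB libraries 1 to 4, against 10.3, 9.7, 11.1 and 7.6 CPM in sham libraries 1 to 4. Every RYGB library lay above every sham library. The log2 fold change was 1.44 ± 0.19 (SE, n = 4 each; limma, adjusted p = 0.0566), and without RYGB 2 it was 1.33 with an adjusted p of 0.0422. Its neighbour Tmem176a, which encodes a related protein, stood at 5.8, 7.5, 4.2 and 6.2 CPM in RYGB libraries, against 3.4, 2.2, 2.3 and 2.2 CPM in sham libraries. Again the groups did not overlap, with a log2 fold change of 0.97 ± 0.21 (SE, n = 4 each; limma, adjusted p = 0.337).

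The 2 genes lie head to head on chromosome 6 (GRCm38). In the GENCODE annotation Tmem176b spans 48833818 to 48841496 on the minus strand and Tmem176a spans 48840919 to 48847071 on the plus strand, so that their outermost transcripts overlap by 578 bases. None of the sources used here says whether counting used the strand, and reads from the overlap cannot be told apart. RefSeq lists 3 start windows for Tmem176b and 2 for Tmem176a. The 108 bases between the nearest pair of divergent starts, chr6:48841375-48841482, are shown on the plus strand from RefSeq (GRCm38.p6), because they are upstream of both genes at those starts, with the letters CAGCTG, the core of an E-box, in capitals.
Tmem176b-Tmem176a: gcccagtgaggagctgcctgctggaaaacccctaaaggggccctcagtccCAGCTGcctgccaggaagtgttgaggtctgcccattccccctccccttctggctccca
The stretch holds 1 match to CAGCTG, which reads the same on both strands and is also held by 6.3% of the 32851 RefSeq windows in the 108 bases before their start. It holds no CCAAT and no TATAAA on either strand, letters held by 19.9% and 5.9% of those windows. CAGCTG overlaps neither of the other motifs. Longer GENCODE transcripts of both genes run through it, and its motifs were looked for after the values of the genes were known.

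**Figure D1:**
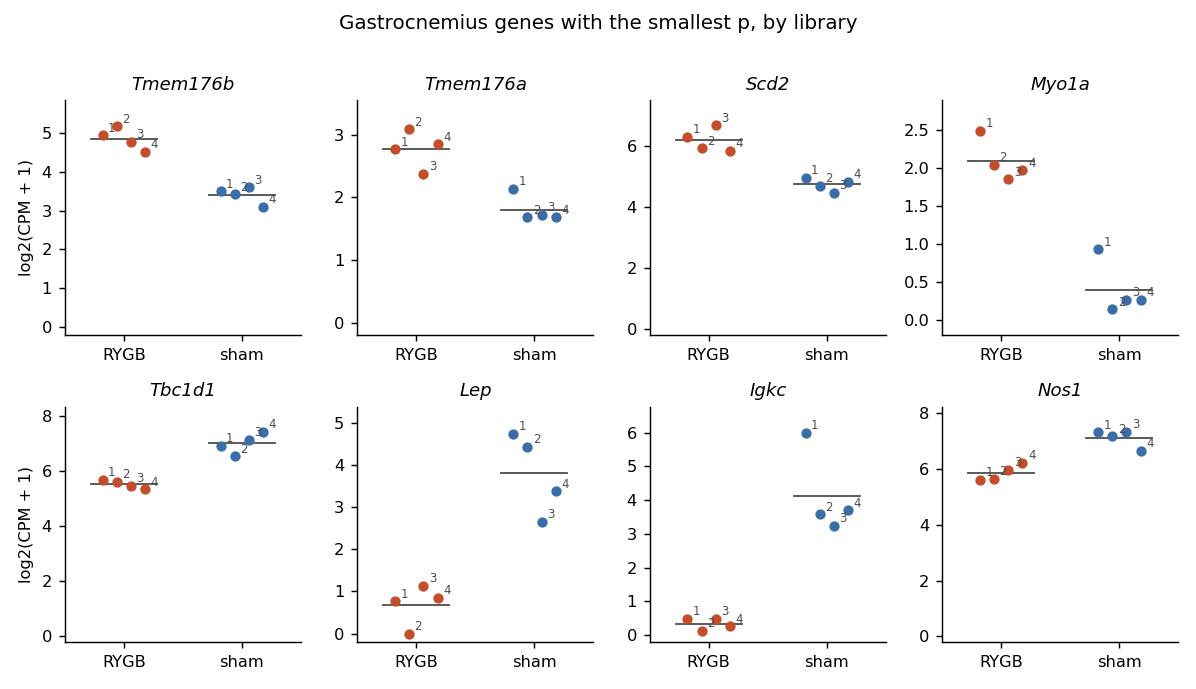
Level of 8 genes in each gastrocnemius library, on the log2(CPM + 1) axis. Each point is 1 animal with its library number, the lines are group means of 4, and RYGB stands left of sham; the groups do not overlap in any of the 8, with Tbc1d1, Lep, Igkc and Nos1 lower in RYGB libraries.

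Tbc1d1 encodes a Rab GTPase-activating protein that holds back GLUT4 until insulin or energy stress signals release it. It stood at 50.6, 48.3, 43.5 and 39.9 CPM in RYGB libraries, against 121.8, 93.1, 141.5 and 172.5 CPM in sham libraries. Every RYGB library lay below every sham library, and the log2 fold change was -1.49 ± 0.21 (SE, n = 4 each; limma, adjusted p = 0.0566; -1.52 and 0.0422 without RYGB 2). Nos1, the neuronal nitric oxide synthase that sits at the muscle membrane with dystrophin, stood at 48.0, 49.7, 61.9 and 74.2 CPM in RYGB libraries, against 159.8, 144.0, 160.9 and 100.4 CPM in sham libraries. Its log2 fold change was -1.26 ± 0.21 (SE; limma, adjusted p = 0.126). Scd2, a stearoyl-CoA desaturase that makes monounsaturated fatty acids, stood at 78.5, 60.4, 102.4 and 56.9 CPM in RYGB libraries, against 30.5, 25.1, 21.3 and 27.6 CPM in sham libraries. Its log2 fold change was 1.45 ± 0.21 (SE; limma, adjusted p = 0.0566; 1.54 and 0.0422 without RYGB 2). Pnpla3, a lipid droplet acylhydrolase gene, ranged from 2.0 to 4.6 CPM in RYGB libraries and from 0.8 to 1.2 CPM in sham libraries. Its log2 fold change was 1.12 with all libraries (limma, adjusted p = 0.239). It passed without RYGB 2, its lowest RYGB library, at a log2 fold change of 1.28 (adjusted p = 0.0468).

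Several genes with small p are best known from other cell types. Lep, the adipocyte hormone leptin, stood at 0.7, 0.0, 1.2 and 0.8 CPM in RYGB libraries, against 26, 20.8, 5.3 and 9.4 CPM in sham libraries. Its log2 fold change was -3.12 ± 0.44 (SE; limma, adjusted p = 0.0566; 0.0468 without RYGB 2 and 0.0268 without sham 3, the lowest sham library). The adipocyte gene Tusc5, whose product aids GLUT4 traffic in fat cells, ranged from 1.7 to 3.3 CPM in RYGB libraries and from 5.1 to 8.5 CPM in sham libraries. Igkc, the constant region of the immunoglobulin kappa light chain, stood at 0.4, 0.1, 0.4 and 0.2 CPM in RYGB libraries, against 63.2, 11, 8.5 and 12 CPM in sham libraries. Its log2 fold change was -3.79 ± 0.52 (SE; limma, adjusted p = 0.0566), and -3.17 without sham 1, the library with the highest value. Igj, the joining chain of secreted antibodies, ranged from 0.3 to 0.8 CPM in RYGB libraries and from 3.5 to 15.7 CPM in sham libraries. The deposited table keeps genes with at least 1 CPM in 4 libraries, which Igkc and Igj meet through the sham libraries alone, so that genes this low in RYGB muscle had to differ to be listed, and their p-values are a description only. Lep met it through the 4 sham libraries and reached 1 CPM in 1 RYGB library, so the same holds for it in large part. Ccr2, a chemokine receptor of monocytes, stood at 29.5, 28, 28.5 and 13.7 CPM in RYGB libraries, against 10.4, 7.0, 8.1 and 6.6 CPM in sham libraries. Its log2 fold change was 1.48 with all libraries (limma, adjusted p = 0.126). It passed without RYGB 4 (log2 fold change 1.74, adjusted p = 0.0405), the lowest of its group, whose removal favours a pass. Macrophages also express Ccr2 and Tmem176b. Macrophage markers summed to 427.6, 412.6, 178.7 and 199.7 CPM in RYGB libraries, against 259.9, 97.6, 155.8 and 135.3 CPM in sham libraries, and their part in these 2 genes was not tested.

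Other genes with small p had low values. Myo1a, a myosin best known from the microvilli of gut epithelium, ranged from 2.6 to 4.6 CPM in RYGB libraries and from 0.1 to 0.9 CPM in sham libraries, a log2 fold change of 1.69 ± 0.23 (SE; limma, adjusted p = 0.0566). Tmem132b ranged from 1.6 to 4.9 CPM in RYGB libraries and from 8.6 to 26.8 CPM in sham libraries. Its log2 fold change was -2.09 with all libraries (limma, adjusted p = 0.102). It passed without sham 1, its lowest sham library (log2 fold change -2.37, adjusted p = 0.04). Flrt1, a leucine-rich repeat membrane protein gene, ranged from 0.9 to 2.5 CPM in RYGB libraries and from 4.0 to 5.9 CPM in sham libraries. Its log2 fold change was -1.285 with all libraries (limma, adjusted p = 0.126). It passed without RYGB 2, its highest RYGB library (log2 fold change -1.44, adjusted p = 0.0422). Nnat, an imprinted gene for a small membrane proteolipid, ranged from 0.0 to 0.5 CPM in RYGB libraries and from 1.3 to 3.5 CPM in sham libraries. Myo1a met the listing rule through RYGB libraries alone and Nnat through sham libraries alone, so both had to differ to be listed and their p-values are a description only. Sox4, a transcription factor gene, ranged from 19.3 to 89.1 CPM in RYGB libraries and from 9.6 to 13.7 CPM in sham libraries, and Abca4, a retinoid transporter gene, from 2.4 to 3.8 CPM in RYGB libraries and from 0.8 to 1.1 CPM in sham libraries. Abca4, like Pnpla3, reached 1 CPM in all RYGB libraries and in 1 sham library, so the p-values of both are in large part a description. Serac1, a gene for phospholipid remodelling between mitochondria and endoplasmic reticulum, ranged from 9.1 to 13.3 CPM in RYGB libraries and from 19.3 to 24.0 CPM in sham libraries.

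Gene lists for muscle pathways and for the cell types a muscle sample can hold were then described, 51 lists with 1090 measured genes. None of their members passed with all 8 libraries. Without RYGB 2, 6 of the 1090 passed, against 24 of all 11594 genes (0.207%). They were Tbc1d1, Scd2, Lep, Fbxo32, Per1 and Col3a1, of which Lep is listed in large part through sham libraries. The plot of list medians sets 24 of them beside each other.

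**Figure D2:**
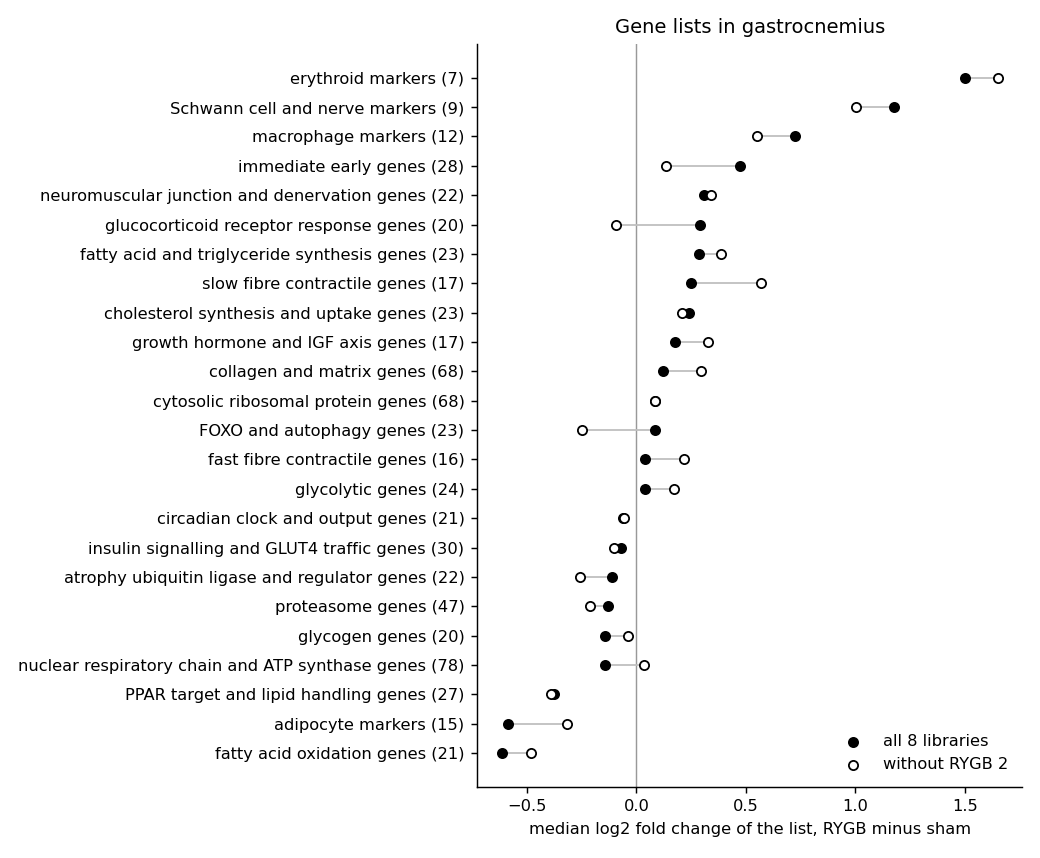
Median log2 fold change (RYGB minus sham) of 24 gene lists in gastrocnemius, with the number of measured members in brackets. Filled points use all 8 libraries and open points leave out RYGB 2; erythroid markers (1.5) and Schwann cell markers (1.18) lie highest and fatty acid oxidation genes (-0.61) lowest, and the glucocorticoid, FOXO and respiratory chain lists change sign without RYGB 2.

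No contractile gene passed the test. The 16 fast-fibre genes had a median log2 fold change of 0.04 (-0.19 without RYGB 4 and 0.22 without RYGB 2) and the 17 slow-fibre genes 0.25 (-0.38 without sham 2 and -0.004 without RYGB 1), with 0 non-overlapping members in either list. Myh4, the fastest myosin heavy chain and the main one of this muscle in mice, stood at 45186, 26780.6, 16313.9 and 72186.8 CPM in RYGB libraries, against 36759.1, 59167.6, 29032.6 and 43417.6 CPM in sham libraries. Myh7, the slow myosin heavy chain, stood at 952.6, 499.8, 223.2 and 724.3 CPM in RYGB libraries, against 641.3, 67.1, 1045.9 and 617.5 CPM in sham libraries. The value of 67.1 CPM is that of sham 2, whose slow-fibre genes lay by a median of 2.19 below the sham mean on the log2 scale. Mylpf, the fast regulatory light chain, stood at 9152.6, 4302.4, 7568.7 and 10513.9 CPM in RYGB libraries, against 4252.8, 5758.0, 3741.3 and 4383.6 CPM in sham libraries. Its groups overlapped through RYGB 2 (log2 fold change 0.74 ± 0.31, SE; limma, adjusted p = 0.682). Sln encodes sarcolipin, a small inhibitor of the sarcoplasmic calcium pump, and stood at 168.9, 32.9, 13.3 and 0.8 CPM in RYGB libraries, against 1.0, 0.3, 2.8 and 0.8 CPM in sham libraries. In Sln 3 RYGB libraries lay above every sham library, and RYGB 4 was among the sham values (log2 fold change 3.26 ± 1.12, SE; limma, adjusted p = 0.595). Actc1, the cardiac actin that adult fast muscle holds at low levels, stood at 525.8, 39.1, 1034.4 and 2236.4 CPM in RYGB libraries, against 126.2, 161.9, 28.8 and 235.6 CPM in sham libraries, again with RYGB 2 the exception (adjusted p = 0.751). Tcap, the titin cap at the Z-disc, ranged from 405.0 to 1030.4 CPM in RYGB libraries and from 806.3 to 1396.1 CPM in sham libraries. Cacnb1, the beta subunit of the muscle calcium channel, ranged from 57.3 to 126.2 CPM in RYGB libraries and from 38.8 to 53.6 CPM in sham libraries, a log2 fold change of 0.85 ± 0.24 (SE; limma, adjusted p = 0.508) without overlap.

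Genes of protein breakdown showed how far RYGB 2 differed from the other bypassed animals. Trim63 and Fbxo32 encode MuRF1 and atrogin-1, the ubiquitin ligases that mark muscle wasting. Trim63 stood at 450.6, 9038.3, 499.2 and 567.3 CPM in RYGB libraries, against 842.8, 1092.7, 1077.3 and 1427.9 CPM in sham libraries. Fbxo32 stood at 740.8, 5779.7, 873.1 and 1002.4 CPM in RYGB libraries, against 2552.1, 2550.2, 2636.7 and 3458.2 CPM in sham libraries. In both genes 3 RYGB libraries lay below every sham library and RYGB 2 lay above every sham library. Without RYGB 2, Fbxo32 fell by 1.68 on the log2 scale (limma, adjusted p = 0.0422, 3 against 4 animals), and Trim63 had a log2 fold change of -1.11 (adjusted p = 0.0857). With all 8 libraries their log2 fold changes were -1.0 ± 0.56 and -0.07 ± 0.85 (SE). Fbxo21, another F-box gene linked to denervation atrophy, did not depend on RYGB 2: it stood at 20.8, 25.6, 31.0 and 25.9 CPM in RYGB libraries, against 45.7, 50.3, 46.1 and 46.1 CPM in sham libraries (log2 fold change -0.85 ± 0.17, SE; limma, adjusted p = 0.215). Sqstm1, the autophagy receptor p62, stood at 257.8, 497.2, 172.7 and 326.3 CPM in RYGB libraries and from 507.9 to 554.6 CPM in sham libraries, without overlap. Over the 22 ubiquitin ligase and regulator genes 2 did not overlap, both lower in RYGB muscle, and the 47 proteasome genes had 3 that did not overlap, all lower, against 1.96% of all genes, with a median log2 fold change of -0.13. Mstn, which encodes myostatin, the hormone that limits muscle growth, ranged from 82.4 to 314.5 CPM in RYGB libraries and from 72.4 to 270.9 CPM in sham libraries.

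RYGB 2 stood apart in further genes, shown in the plot of genes by library. Foxo1, the transcription factor that drives the ubiquitin ligases, stood at 124.3, 611.6, 73.6 and 39.3 CPM in RYGB libraries and between 45.5 and 69.0 CPM in sham libraries. Fkbp5, a glucocorticoid receptor target, stood at 65.1, 263.4, 26.9 and 28.5 CPM in RYGB libraries and between 46.0 and 85.8 CPM in sham libraries. The metallothionein gene Mt2 stood at 8.6, 80.5, 2.7 and 3.8 CPM in RYGB libraries and between 1.6 and 1.9 CPM in sham libraries. Chosen after their values were seen, the zinc transporter gene Slc39a14 and the protease inhibitor gene Serpina3n reached 352.4 and 133.0 CPM in RYGB 2, against at most 21.6 and 9.9 CPM in every other library. The collagen gene Col3a1 was low in RYGB 2, at 399.9, 35.0, 544.2 and 464.3 CPM in RYGB libraries, against 239.7, 133.5, 126.5 and 144.2 CPM in sham libraries. It rose by 1.58 on the log2 scale without RYGB 2 (limma, adjusted p = 0.0468), and by 0.65 with all libraries (adjusted p = 0.903). The 20 glucocorticoid response genes had a median log2 fold change of 0.29 with all libraries and -0.09 without RYGB 2. Sgk1, a kinase gene of that list, had values of 391.8, 446.8, 174.9 and 256.3 CPM in RYGB libraries and of 111.7 to 195.9 CPM in sham libraries, so its high values were not confined to RYGB 2.

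**Figure D3:**
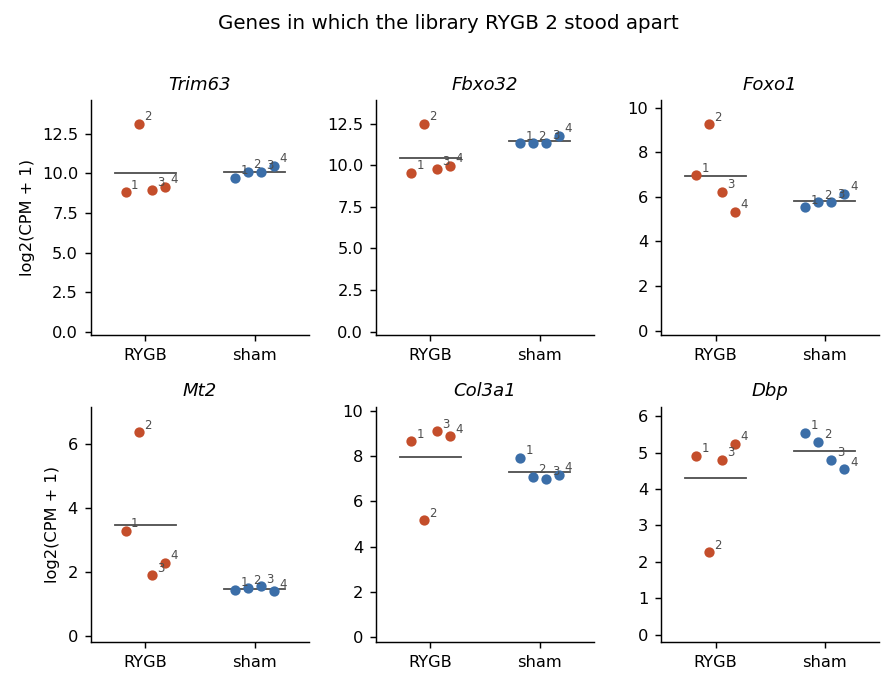
Level of 6 genes in each gastrocnemius library, on the log2(CPM + 1) axis, chosen because RYGB 2 lay outside the other libraries. Points are animals with their library numbers and lines are group means of 4; RYGB 2 is highest in Trim63, Fbxo32, Foxo1 and Mt2 and lowest in Col3a1 and Dbp, a clock output gene.

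The animal behind RYGB 2 also stood apart in some genes of its other tissues, of which Mt1, Saa1 and Serpina3n were chosen after their values were seen. In white adipose tissue (WAT) the metallothionein gene Mt1 stood at 2348.7 CPM in that animal, against 39.7 to 107.9 CPM in the 3 other RYGB mice and 43.8 to 91.5 CPM in 5 sham mice. The acute-phase gene Saa1 in its liver stood at 8846 CPM, against 15.8 to 3336.1 CPM in 4 other RYGB mice and 2.5 to 23 CPM in 4 sham mice. Serpina3n stood at 2987.5 CPM in its liver, against 315.5 to 1211.1 CPM in other RYGB mice and 36.0 to 134.5 CPM in sham mice. Other genes of its liver were within the range of the other RYGB mice, among them Igkc, Tbc1d1, Tmem176b and Scd2. In its WAT the same genes lay outside the range of the 3 other RYGB mice. Igkc stood at 0.8 CPM, against 105.1 to 235.2 CPM, and Tbc1d1 at 10.8 CPM, against 15.4 to 26.2 CPM. Tmem176b stood at 201.5 CPM, against 75.0 to 141.1 CPM, and Scd2 at 59.8 CPM, against 320.7 to 1790 CPM. Lep in its WAT stood at 1.2 CPM, against 34.2 to 43.2 CPM. The part of these differences in the muscle results was not tested beyond leaving the library out.

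Genes of fatty acid oxidation had lower values in RYGB muscle as a list, though 1 sham library shared the low values. Of 21 measured members, 20 had a negative log2 fold change, 5 had an unadjusted p below 0.05 with lower values, against 2.98% of all genes, and 1 did not overlap, with a median of -0.61 (-0.48 without RYGB 2, -0.94 without sham 2 and -0.39 without sham 3). Mlycd encodes malonyl-CoA decarboxylase, which removes the inhibitor of carnitine palmitoyltransferase. It stood at 25.7, 52.3, 41.9 and 54.5 CPM in RYGB libraries, against 90.2, 63.0, 105.1 and 75.8 CPM in sham libraries (log2 fold change -0.95 ± 0.26, SE; limma, adjusted p = 0.491). Eci2, an enoyl-CoA isomerase of unsaturated fatty acid breakdown, ranged from 39.3 to 61.1 CPM in RYGB libraries and from 60.8 to 102.8 CPM in sham libraries. Slc25a20, the carnitine-acylcarnitine carrier, ranged from 66.4 to 102.7 CPM in RYGB libraries and stood at 150.7, 76.7, 195.0 and 142.6 CPM in sham libraries. Acadl, the long-chain acyl-CoA dehydrogenase, ranged from 256.1 to 472.0 CPM in RYGB libraries and stood at 693.4, 292.6, 969.4 and 562.7 CPM in sham libraries. In both genes sham 2, the library low in slow-fibre genes, lay among the RYGB values. The level of the list in each library is shown in the plot of list levels: relative to the sham mean its median was -0.96, -0.94, -0.37 and -0.21 in RYGB libraries and 0.19, -0.96, 0.68 and 0.00 in sham libraries.

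Of 27 PPAR target and lipid handling genes 20 lay below 0, and 7 had an unadjusted p below 0.05 with lower values, against 2.98% of all genes, with a median of -0.38 (-0.62 without sham 2 and -0.20 without sham 3). Cidec and Lipe, among those 7, are also in the list of adipocyte markers. Fabp3, the fatty acid-binding protein of oxidative muscle, stood at 103.4, 49.5, 129.6 and 188.6 CPM in RYGB libraries, against 474.8, 93.6, 667.3 and 306.2 CPM in sham libraries (log2 fold change -1.54 ± 0.60, SE; limma, adjusted p = 0.663). Acot2, a mitochondrial acyl-CoA thioesterase, stood at 32.4, 252.7, 100.2 and 56.5 CPM in RYGB libraries, against 306.0, 137.0, 482.5 and 267.3 CPM in sham libraries. Ucp3, the muscle uncoupling protein, was not low in sham 2: it stood at 116.7, 169.5, 205.3 and 162.7 CPM in RYGB libraries, against 238.8, 236.2, 270.0 and 262.8 CPM in sham libraries, without overlap (log2 fold change -0.65 ± 0.20, SE; limma, adjusted p = 0.595). Pdk4, the kinase that shuts off pyruvate oxidation in fasting, ranged from 2065.6 to 10473 CPM in RYGB libraries, with RYGB 2 the highest, and from 3241.7 to 7511.4 CPM in sham libraries. The 78 nuclear genes of the respiratory chain had a median of -0.15, and 0.03 without RYGB 2. Ppargc1a, the coactivator of mitochondrial biogenesis, stood at 144.3, 275.2, 352.8 and 110.4 CPM in RYGB libraries, against 93.2, 73.0, 114.3 and 94.7 CPM in sham libraries, with RYGB 4 inside the sham range (log2 fold change 1.09 ± 0.34, SE; limma, adjusted p = 0.595).

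**Figure D4:**
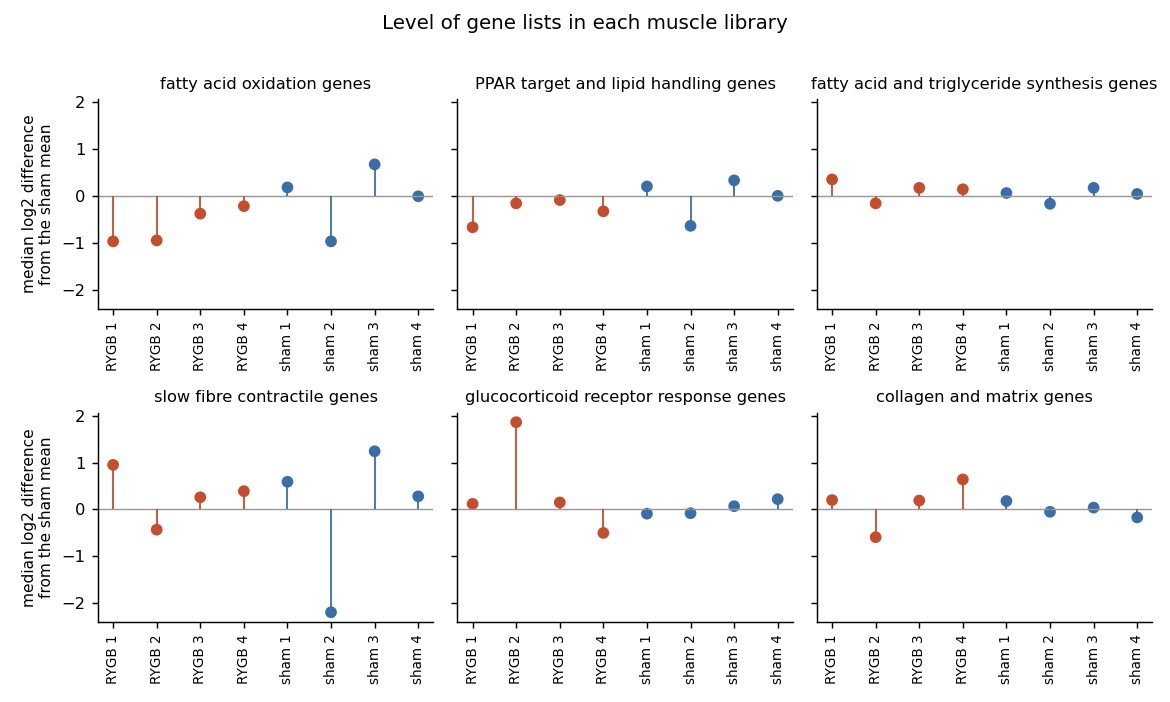
Level of 6 gene lists in each gastrocnemius library, as the median over members of the log2(CPM + 1) difference from the sham mean. RYGB libraries stand left of sham libraries; fatty acid oxidation genes are as low in sham 2 (-0.96) as in RYGB 1 and RYGB 2, sham 2 is lowest in slow-fibre genes (-2.19), and RYGB 2 is highest in glucocorticoid response genes (1.86) and lowest in collagen and matrix genes (-0.59).

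Genes of glucose and glycogen handling had list medians near 0, the median of all genes. The 30 insulin signalling and GLUT4 traffic genes had a median log2 fold change of -0.07, the 20 glycogen genes -0.15 and the 24 glycolytic genes 0.04. Slc2a4, which encodes GLUT4 itself, stood at 719.1, 574.3, 820.7 and 968.4 CPM in RYGB libraries, against 589.9, 567.7, 787.1 and 584.5 CPM in sham libraries. Hk2, the hexokinase that traps glucose in muscle, ranged from 268.3 to 589.0 CPM in RYGB libraries and from 423.0 to 552.6 CPM in sham libraries. Grb10, an adaptor that restrains the insulin receptor, ranged from 103.0 to 158.7 CPM in RYGB libraries and from 74.5 to 105.9 CPM in sham libraries. Fbp2, the muscle fructose bisphosphatase, stood at 40.9, 27.9, 52.5 and 47.0 CPM in RYGB libraries, against 109.8, 100.1, 88.3 and 69.9 CPM in sham libraries, without overlap (log2 fold change -1.13 ± 0.23, SE; limma, adjusted p = 0.245). Ppp1r3c, which brings phosphatase to glycogen and favours its synthesis, stood at 928.4, 1176.8, 513.6 and 495.5 CPM in RYGB libraries, against 210.8, 586.8, 320.4 and 304.7 CPM in sham libraries (log2 fold change 1.13 ± 0.36, SE; limma, adjusted p = 0.595). Stbd1, which anchors glycogen to membranes, ranged from 35.9 to 108.3 CPM in RYGB libraries and from 18.3 to 33.9 CPM in sham libraries, without overlap.

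Lipid synthesis genes pointed both ways. Of 23 fatty acid and triglyceride synthesis genes, 16 were above 0, 6 had an unadjusted p below 0.05 with higher values, against 4.02% of all genes, and 3 with lower values, against 2.98%, and the median was 0.28. The median was 0.09 without RYGB 1. Besides Scd2, the elongase gene Elovl6 ranged from 3.1 to 5.6 CPM in RYGB libraries and from 1.3 to 2.4 CPM in sham libraries (log2 fold change 0.86 ± 0.22, SE; limma, adjusted p = 0.454). Acly, which makes cytosolic acetyl-CoA, ranged from 29.4 to 58.2 CPM in RYGB libraries and from 20.5 to 32.2 CPM in sham libraries. Gpam, the first enzyme of triglyceride assembly, stood at 170.1, 71.7, 245.5 and 208.9 CPM in RYGB libraries, against 452.0, 206.3, 481.3 and 350.8 CPM in sham libraries (log2 fold change -1.16 ± 0.39, SE; limma, adjusted p = 0.595). The 23 cholesterol genes had a median of 0.24 and 2 that did not overlap, both higher in RYGB muscle, against 1.91% of all genes. One of them was Sqle, the squalene oxidase, at 1.0 to 2.2 CPM in RYGB libraries and 0.5 to 0.9 CPM in sham libraries, which is listed through RYGB libraries alone and had to differ to be listed.

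In the growth hormone and IGF axis 4 of 17 members lay wholly above the sham values, against 1.91% of all genes, and none lay wholly below. They were Socs3, an inhibitor of cytokine signalling (3.1 to 17.2 CPM in RYGB libraries, 0.9 to 2.6 CPM in sham libraries), the binding protein genes Igfbp3 and Igfbp4, and the growth factor gene Igf2. Igfbp4 stood at 86.7, 89.8, 93.3 and 100.3 CPM in RYGB libraries, against 68.4, 60.4, 72.8 and 63.6 CPM in sham libraries (log2 fold change 0.48; limma, adjusted p = 0.595). Igf2 ranged from 30.4 to 59.8 CPM in RYGB libraries and from 21.2 to 26.9 CPM in sham libraries, and Igfbp3 had its highest value, 48.3 CPM, in RYGB 2. Igf1 itself ranged from 28.2 to 99.6 CPM in RYGB libraries and from 31.3 to 48.9 CPM in sham libraries. The list median was 0.17, with a range from 0.004 without sham 3 to 0.33 without RYGB 2. Of 21 clock genes none lay wholly above or wholly below the sham values, and Per1, a core repressor that glucocorticoids also induce, stood at 23.7, 65.0, 16.6 and 13.2 CPM in RYGB libraries, against 42.4, 46.0, 54.1 and 63.8 CPM in sham libraries. With all libraries its log2 fold change was -1.04 (limma, adjusted p = 0.663), and without RYGB 2 it fell by 1.5 on the log2 scale (adjusted p = 0.0464). Immediate early genes, which respond within minutes to activity or stress, had a median of 0.47 over 28 members and 0.14 without RYGB 2. Egr1 stood at 18.4, 27.7, 17.1 and 58.2 CPM in RYGB libraries, against 13.7, 4.7, 5.3 and 4.6 CPM in sham libraries, without overlap (log2 fold change 1.91 ± 0.42, SE; limma, adjusted p = 0.371). Egr2 ranged from 1.0 to 2.5 CPM in RYGB libraries and from 0.2 to 1.0 CPM in sham libraries.

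Markers of cells other than muscle fibres were summed by library, as the plot of marker sums shows. In bulk tissue, fewer cells of a type and less RNA per cell cannot be told apart. Schwann cells make the myelin of the motor and sensory nerve branches inside the muscle. All 9 measured of 10 Schwann cell and nerve markers had a positive log2 fold change with an unadjusted p below 0.05, against 4.02% of all genes, 5 of them without overlap, and none passed the adjusted threshold. Their summed level was 167.7 to 577.6 CPM in RYGB libraries and 88.5 to 135.0 CPM in sham libraries. The markers Sox10 and Ncmap were near the listing limit of 1 CPM. Sox10 ranged from 1.0 to 2.1 CPM in RYGB libraries and from 0.4 to 1.2 CPM in sham libraries. Ncmap ranged from 1.0 to 8.5 CPM in RYGB libraries and from 0.8 to 1.0 CPM in sham libraries. Both are listed mainly through the RYGB libraries, so their p-values are in large part a description. Pmp22, a myelin protein of peripheral nerve, stood at 81.9, 185.8, 225.8 and 92.7 CPM in RYGB libraries, against 64.5, 45.8, 64.9 and 61.5 CPM in sham libraries. Mbp, Prx and S100b had their highest values in RYGB 3, like Pmp22, and Prx in RYGB 1 (5.4 CPM) was inside the sham range (2.8 to 5.5 CPM). The 22 neuromuscular junction and denervation genes had a median of 0.31, with 16 above 0 and 6 below. Of them 3 had an unadjusted p below 0.05 with higher values, against 4.02% of all genes, and 0 were without overlap.

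Erythroid markers, which follow the blood left in the tissue, had 7 of 10 members in the table. Their summed level was 139.9 to 502.8 CPM in RYGB libraries and 95.1 to 152.8 CPM in sham libraries, and 4 members did not overlap, against 1.91% of all genes. Most of each sham sum was Bpgm, at 52.7 to 88.0 CPM in sham libraries and 20.3 to 108.0 CPM in RYGB libraries (log2 fold change -0.24). The alpha globin genes Hba-a1 and Hba-a2 overlapped, with log2 fold changes of 0.92 and 0.76. The list median was 1.5, and 1.0 without RYGB 1. Hbb-bs, an adult beta globin, stood at 302.0, 95.6, 193.4 and 52.8 CPM in RYGB libraries, against 50.5, 17.9, 31.3 and 42.4 CPM in sham libraries (log2 fold change 1.95 ± 0.51, SE; limma, adjusted p = 0.491). Hbb-bt, the neighbouring globin, ranged from 6.4 to 30.1 CPM in RYGB libraries and from 1.4 to 4.0 CPM in sham libraries, and reads could be split between these near-identical genes. All 12 measured macrophage markers had a positive log2 fold change, 5 at an unadjusted p below 0.05, against 4.02% of all genes, none was without overlap, and their sum was above every sham library in RYGB 1 and RYGB 2. Lyz2, the lysozyme of macrophages, stood at 239.1, 204.9, 97.3 and 98.7 CPM in RYGB libraries, against 108.8, 44.2, 73.4 and 62.1 CPM in sham libraries. Adipocyte markers summed to 3332 to 8101 CPM in RYGB libraries and 3809 to 6387 CPM in sham libraries, ranges that overlapped, and most of each sum was Car3, which muscle fibres also express (2797.5 to 7311.9 CPM in RYGB libraries, 2947.1 to 5492.4 CPM in sham libraries). Of the 15 measured, 3 lay wholly below the sham values, against 1.96% of all genes, Lep, Tusc5 and Fabp4. Adipoq, the defining adipocyte hormone, stood at 11.4, 2.4, 10.4 and 1.5 CPM in RYGB libraries, against 18.1, 14.4, 5.2 and 13.4 CPM in sham libraries. Lep therefore differed by more than Adipoq did (log2 fold changes -3.12 ± 0.44 and -1.11 ± 0.56, SE), a difference between genes that was not tested. The part of nerve, blood, immune and fat cells in the gene results above was not tested.

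**Figure D5:**
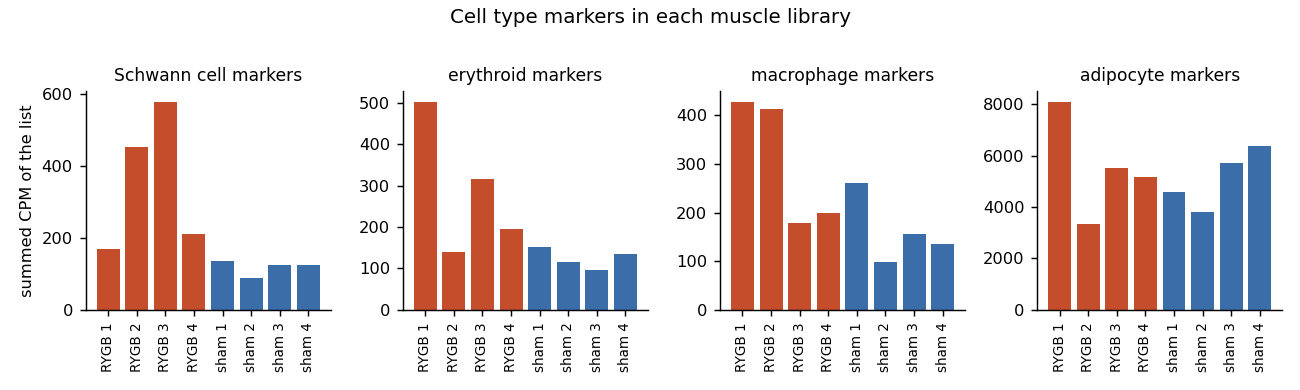
Summed CPM of the markers of 4 cell types in each gastrocnemius library, with axes from 0. RYGB libraries are the 4 left bars of each panel. All 4 RYGB libraries exceed every sham library in Schwann cell markers, 3 do in erythroid markers and 2 in macrophage markers. Adipocyte markers overlap. Most of each sham erythroid sum is Bpgm.

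Interferon-stimulated genes had 24 of 29 members above 0 with a median of 0.25, and their summed level was 663.4, 218.6, 379.2 and 297.2 CPM in RYGB libraries, against 291.6, 276.1, 265.6 and 235.4 CPM in sham libraries, with RYGB 1 the highest and RYGB 2 the lowest. Collagen and matrix genes had 49 of 68 members above 0, with a median of 0.12 (0.29 without RYGB 2 and -0.05 without RYGB 4). Cytosolic ribosomal protein genes had 9 of 68 members at an unadjusted p below 0.05 with higher values, against 4.02% of all genes, and 3 without overlap, against 1.91%, with a median of 0.09 (-0.02 without RYGB 1 and 0.19 without RYGB 3). Many of them have near-identical copies in the genome, so their counts are uncertain.

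With RYGB 2 left out, 14 genes rose and 10 fell (limma, adjusted p from 0.0422 to 0.0468, 3 against 4 animals). Of the 24, 8 did not overlap with all libraries included: Tmem176b, Scd2, Pnpla3, Myo1a, Tbc1d1, Flrt1, Lep and Igkc. Of these, Myo1a and Igkc are listed through 1 group alone, and Pnpla3 and Lep in large part through 1 group. In the other 16, RYGB 2 lay inside or beyond the sham range. Those not yet described were chosen after their values were seen. Aqp4, the water channel of fast muscle fibres, stood at 180.1, 15.5, 164.1 and 83.5 CPM in RYGB libraries, against 25.8, 6.7, 18.7 and 12.9 CPM in sham libraries, and rose by 3.14 ± 0.41 on the log2 scale without RYGB 2 (SE; adjusted p = 0.0422). Pak1, a kinase of actin remodelling that takes part in glucose uptake, stood at 79.4, 23.3, 59.7 and 60.6 CPM in RYGB libraries, against 22.8, 27.1, 18.6 and 26.5 CPM in sham libraries. Both show 3 RYGB libraries above every sham library and RYGB 2 among the sham values. Trim35, Trim7, Fam171b, Lrp2bp, Angptl2, Cited4 and Lsmem1 also rose. Clip1, which links microtubules to membranes, stood at 513.3, 1816.4, 474.0 and 562.0 CPM in RYGB libraries, against 1179.9, 1259.2, 1282.0 and 1441.2 CPM in sham libraries, and fell by 1.32 without RYGB 2. Tacc2, a centrosomal protein gene, stood at 549.2, 2435.3, 785.2 and 802.1 CPM in RYGB libraries, against 1984.5, 1562.3, 2269.5 and 2142.0 CPM in sham libraries, and fell by 1.49. In Clip1 and Tacc2, as in Trim63 and Fbxo32, RYGB 2 lay above every sham library. Inmt and Zrsr1 also fell.

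The effect of the operation in muscle was set against that in WAT of the same animals, 4 RYGB and 4 sham mice, by taking the muscle minus WAT difference within each animal. It differed in 924 genes with a higher effect in muscle (8.33%) and 508 with a lower effect (4.58%) of 11092, and the median gene differed by 0.18, or by 0.01 after median-of-ratios scaling. Leaving out each animal in turn gave 360 to 2390 higher and 141 to 1251 lower, the most without the animal of RYGB 4. Fasn, the fatty acid synthase, stood at 3844.1 to 18832.8 CPM in RYGB WAT and 95.6 to 180.6 CPM in sham WAT, while in muscle it stood at 10.3 to 95.7 CPM in RYGB libraries and 10.3 to 13.5 CPM in sham libraries. The difference of the 2 effects was -4.78 ± 0.41 (SE; limma, adjusted p = 0.000214). Elovl6 differed by -3.32 ± 0.47 (adjusted p = 0.00218), with 142.0 to 849.9 CPM in RYGB WAT and 13.7 to 23.4 CPM in sham WAT. Egr1 differed by 2.42 ± 0.49 (adjusted p = 0.0115), at 13.0 to 36.6 CPM in RYGB WAT and 26.2 to 31.1 CPM in sham WAT. Tmem176b stood at 75.0 to 201.5 CPM in RYGB WAT, the highest in the animal of RYGB 2, and 87.8 to 105.2 CPM in sham WAT. It differed by 1.16 ± 0.34 (limma, adjusted p = 0.0443). After median-of-ratios scaling it was 0.98 with an adjusted p of 0.0778, and it missed the threshold without the animal of RYGB 1, of RYGB 3 or of any sham library (adjusted p 0.0895 to 0.118). Lep was lower in RYGB mice in both tissues. In WAT it stood at 1.2 to 43.2 CPM in RYGB mice, the lowest in the animal of RYGB 2, and 436.2 to 2068.6 CPM in sham mice. The effect in muscle was smaller by 2.94 ± 0.80 on the log2(CPM + 1) scale (limma, adjusted p = 0.0343), a scale that compresses low values. It missed the threshold without the animal of RYGB 1, 2 or 3 or of sham 1, 2 or 3 (adjusted p 0.0577 to 0.0938), and with a pseudocount of 0.1, added after seeing the data, it was 1.73 with an adjusted p of 0.116. Set against liver in 4 RYGB and 3 sham mice, 76 genes had a higher and 96 a lower effect in muscle of 9240 (0.823% and 1.04%), and leaving out each animal in turn gave 1 to 743 higher and 2 to 1718 lower, the most without the animal of RYGB 1. Igkc, which stood at 0.8 to 14.5 CPM in RYGB liver and 0.1 to 2.3 CPM in sham liver, differed by -6.14 ± 0.70 (SE; limma, adjusted p = 0.00263), a description only, since sham muscle alone brought it into the muscle table.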

How the data were processed

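RNA was sequenced from gastrocnemius of 8 mice, and the labels give separate animal codes for the 8 libraries. Libraries were made with PrepX kits after extraction on silica columns, per the labels' protocols. Reads were counted with HTSeq on GRCm38, per the submitters' processing notes; the sources used here name no aligner, annotation or use of strand. The authors deposited CPM rounded to 0.1 per tissue, and each listed gene reaches 1 CPM in at least 4 muscle libraries. Listed genes sum to 983600 to 988500 CPM per library. Whole reads could not be recovered for every library, so no count model was run and values carry no counting interval.

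RYGB was compared with sham on log2(CPM + 1) with limma 3.58.1 (R 4.3.3; linear model, moderated variances with trend and robust options) over all 11594 genes, adjusted by Benjamini-Hochberg, and called at 0.05. Differences between tissues were fitted on the difference within each animal. On simulated data the muscle comparison recovered larger changes more often than smaller ones, the WAT comparison recovered fewer, and the liver comparison recovered none. No 2 libraries held identical values. Alternatives were another scaling, pseudocount, filter and variance option, array weights, an exon-length correction, the replicate number as a block, and each library left out. The members, lists and tests were chosen with earlier results of these data known. Genes in the text were named by rule: in each direction the 10 with the smallest p, up to 6 list members with the smallest p and 3 with the highest level, and a set of muscle regulators; others are said to be chosen after their values were seen. These rules did not cover which of the named genes were set against WAT and liver. Tables and plots used Python 3.11.15, pandas 2.3.3 and matplotlib 3.10.9. Sequence came from RefSeq GRCm38.p6.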

Additional observations from a re-analysis of the deposited data

Results flagged for a closer look

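Each group of 4 libraries was screened for a highest or lowest library whose gap to its nearest neighbour, as a share of the group's range, exceeded Dixon's 95% critical value. Chance gives about 1 in 20 groups. The screen took 74 of the genes named here, and the other named genes, Clip1 among them, were not screened. Of their 148 groups 15 were beyond the critical value, 6 among RYGB and 9 among sham groups. RYGB 2 was the outlying library in 5 of the screened groups. It was highest in Trim63 (0.923; 9038.3 CPM, against 450.6 to 567.3 CPM in the other RYGB libraries), in Fbxo32 (0.853; 5779.7 CPM, against 740.8 to 1002.4 CPM) and in Abca4 (0.834; 3.8 CPM, against 2.4 to 2.6 CPM). It was lowest in Fabp4 (0.947; 78.7 CPM, against 145.9 to 151.0 CPM) and in Col3a1 (0.887; 35.0 CPM, against 399.9 to 544.2 CPM). RYGB 4 was lowest in Ccr2 (0.931; 13.7 CPM, against 28 to 29.5 CPM).

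Among sham libraries, sham 1 was highest in Igj (0.875; 15.7 CPM, against 3.5 to 4.3 CPM in the other sham libraries), Igkc (0.836; 63.2 CPM, against 8.5 to 12 CPM), Egr1 (0.878; 13.7 CPM, against 4.6 to 5.3 CPM), Tmem176a (0.903; 3.4 CPM, against 2.2 to 2.3 CPM) and Myo1a (0.841; 0.9 CPM, against 0.1 to 0.2 CPM). Sham 2 was highest in Fbxo21 (0.909; 50.3 CPM, against 45.7 to 46.1 CPM) and lowest in Pmp22 (0.845; 45.8 CPM, against 61.5 to 64.9 CPM). Sham 3 was highest in Slc2a4 (0.883; 787.1 CPM, against 567.7 to 589.9 CPM), and sham 4 in Fbxo32 (0.89; 3458.2 CPM, against 2550.2 to 2636.7 CPM).

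The effect of the operation differed between muscle and WAT by limma in the 5 genes given for that comparison, against 12.9% of all genes. The naming rules did not cover which genes were set against WAT, so that all of them passed is a description only. The differences were 2.94 in Lep, 2.42 in Egr1, 1.16 in Tmem176b, -4.78 in Fasn and -3.32 in Elovl6 on the log2(CPM + 1) scale. The effect differed between muscle and liver in Igkc by -6.14, a description only, since sham muscle alone brought Igkc into the muscle table. For Lep and Tmem176b the call depended on the animals included.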

How the results depend on the processing

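The main limit is 4 animals per group with 1 bypassed animal that stood apart; depth is known for 4 libraries only, and a count model was not run because the files hold CPM. No gene passed with median-of-ratios scaling, a mean of at least 5 CPM (9045 genes), variance options without trend and robust, or exon-length trend removed. Array weights gave 8 higher and 5 lower genes and 1946 at an unadjusted p below 0.05, 7 of the 13 shared with the 24 called without RYGB 2. A pseudocount of 0.1 gave 0 higher and 1 lower, Igkc (-5.55, limma adjusted p = 0.0224). Same-numbered libraries are different animals, and their deviations correlated at 0.1, -0.02, -0.12 and -0.2, so the numbers pair nothing. With the replicate block 1 gene was higher, Myo1a (limma, adjusted p = 0.038), and 1 lower, Tmem132b (adjusted p = 0.0372). Igkc and Myo1a are each listed through 1 group alone and had to differ to be listed, so the calls of both are a description only. Leaving out 1 library gave 0 to 14 higher and 0 to 10 lower genes, 505 to 1613 at an unadjusted p below 0.05, and 0 to 6 list members that passed; the median of fatty acid and triglyceride synthesis genes was 0.086 (without RYGB 1) to 0.384. Log2 fold changes that changed sign ranged from -1.11 to 0.33 in Trim63, -0.71 to 0.37 in Fkbp5, -0.70 to 0.079 in Pdk4, -0.59 to 0.13 in Myh4, -0.50 to 0.81 in Myh7, -0.27 to 0.47 in Mstn and -0.21 to 0.17 in Hk2; none of these passed with a library left out. Muscle minus WAT gave 360 to 2390 higher and 141 to 1251 lower genes with 1 animal left out. Muscle minus liver gave 1 to 743 and 2 to 1718, 365 and 398 after median-of-ratios scaling, and 5 and 6 with a pseudocount of 0.1, added after seeing the data. The causes were not tested.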
